A study of Neurospora crassa OR74A with 2 samples.

Results

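The core of the MAK-1 pathway of the filamentous fungus Neurospora crassa was followed in germlings that lack the transcription factor PP-1. It was taken as 5 genes chosen by identifier, and all 5 of them were found among the 8564 genes of the deposited tables. In the order of the pathway they were wsc-1 (NCU06910), pkc-1 (NCU06544), mik-1 (NCU02234), mek-1 (NCU06419) and mak-1 (NCU11376). Transcripts were measured by RNA-seq in 1 library of the Δpp-1 deletion strain, for which no strain number is given in the sources used here, and 1 library of the wild type, strain FGSC 2489. Both cultures were inoculated at 1000000 conidia (asexual spores) per ml and grown for 5 h at 30 °C, a stage at which wild-type germlings fuse with one another. Bulk RNA was sequenced, so fewer cells of a type and less RNA per cell cannot be told apart.

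The MAK-1 pathway is the cell wall integrity pathway, known best from its counterpart in Saccharomyces cerevisiae. Its upstream part is made of sensors in the plasma membrane such as WSC-1, with an extracellular domain anchored in the wall, and of protein kinase C. Protein kinase C starts a relay of kinases, from the MAP kinase kinase kinase MIK-1 through the MAP kinase kinase MEK-1 to the MAP kinase MAK-1. In N. crassa this relay is needed for a normal wall and also for germling fusion, for which the MAK-2 relay upstream of PP-1 is needed as well.

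Levels are given as RPKM, reads per kilobase of gene per 1000000 reads, a unit that allows genes of unequal length to be set side by side. The low values placed the library totals behind the scaling at an estimated 9369000 reads for Δpp-1 and 7855000 for the wild type, or at 50% of these figures if the steps in the values stand for parts of a read. The deleted gene pp-1 (NCU00340) stood at 1.69 RPKM in Δpp-1 and 83.8 RPKM in the wild type, the side that the labels call for. Since each strain was represented by a single library, there was no test, no difference has a replicate check, and each value describes these libraries. Intervals in brackets are 95% counting intervals, which leave out the variation between cultures. Log2 folds are those of Δpp-1 over the wild type after 1 RPKM was added to each value.

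Among the 5 genes, the largest difference between the strains was that of mek-1, for the MAP kinase kinase. In the values as deposited, mek-1 was 3.99-fold lower in Δpp-1, and mak-1 just beneath it was 1.61-fold lower. In these values wsc-1, pkc-1 and mik-1, which act above them, differed by at most 1.10-fold in either direction. Of the 5 genes, all of which reached 10 RPKM in the higher library, 1 was at least 2-fold lower in Δpp-1 and 0 were 2-fold or more higher. Over all 4831 genes compared, 6.98% were at least 2-fold lower and 2.73% at least 2-fold higher. The median log2 fold of the 5 genes was -0.09, beside -0.28 for all genes compared, but it hides the spread from -1.97 for mek-1 to 0.13 for mik-1. The median gene was thus slightly lower in Δpp-1 in the values as deposited, and positions relative to it are given where they matter. On the log2 scale mik-1 lay 0.40 above the median gene and mak-1 0.40 below it, so they were about equally far from it.

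**Figure D1:**
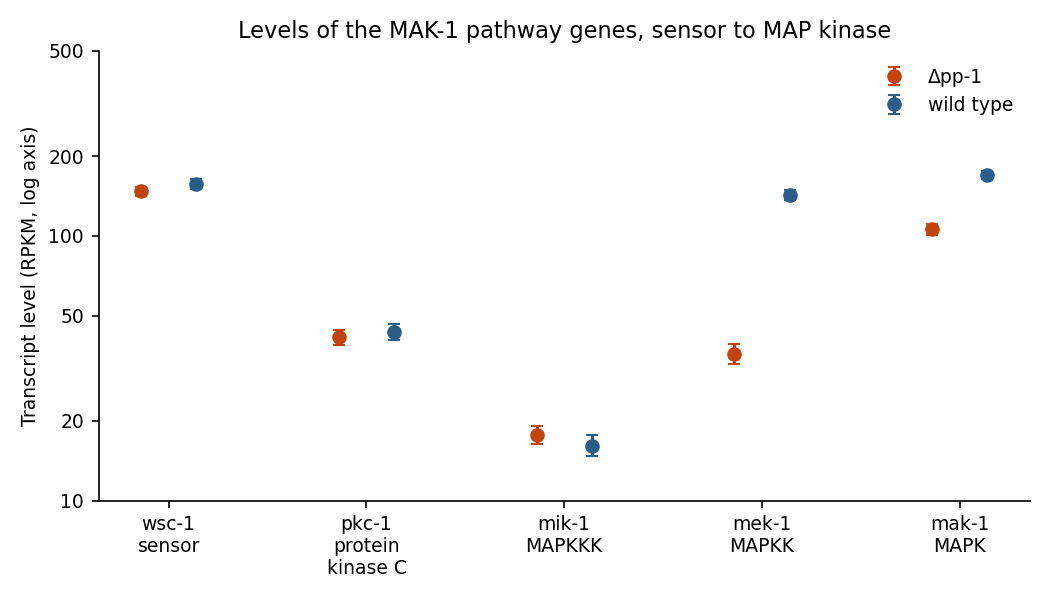
Transcript level (RPKM, log axis) of the 5 genes in pathway order, with Δpp-1 left of the wild type in each pair; points are single libraries and bars are 95% counting intervals. The pairs lie close together from wsc-1 to mik-1, and apart for mek-1 (35.8 RPKM in Δpp-1 and 143 RPKM in the wild type) and mak-1 (106 and 170 RPKM in the same order).

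The sensor gene wsc-1 stood at 147 RPKM in Δpp-1 [141 to 153] and at 157 RPKM in the wild type [150 to 164]. Its log2 fold was -0.09, and the 2 intervals overlapped. The counting interval of its log2 ratio without an added RPKM, from -0.177 to -0.006, was narrowly on the negative side in the values as deposited. wsc-1 lay 0.19 above the median gene on the log2 scale, so the side on which it lies depends on how the libraries are scaled to each other.

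The protein kinase C gene, listed as pkc in the RefSeq gene table, stood at 41.4 RPKM in Δpp-1 [38.8 to 44.1] and 43.2 RPKM in the wild type [40.4 to 46.3]. The log2 fold of -0.06 was the one nearest to 0 among the 5 genes. mik-1, for the kinase that protein kinase C acts on, was the lowest-expressed of the 5 in both libraries, at 17.7 RPKM in Δpp-1 [16.3 to 19.2] and 16.1 RPKM in the wild type [14.7 to 17.7]. It was the only one of the 5 with a positive log2 fold in the values as deposited, 0.13, and its intervals overlapped between the strains.

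mek-1, for the kinase that phosphorylates MAK-1, stood at 35.8 RPKM in Δpp-1 [33.0 to 38.9] and 143 RPKM in the wild type [137 to 149]. The wild-type interval lay far above that of Δpp-1. The log2 fold was -1.97, and the log2 ratio without an added RPKM was -1.99 with a counting interval from -2.13 to -1.86. Relative to the median gene the log2 fold was -1.69. Of the 4831 genes compared, 118 had a log2 fold as low as that of mek-1 or lower. In level, mek-1 exceeded 80.1% of all genes in Δpp-1 and 94.0% of them in the wild type.

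mak-1, for the MAP kinase at the end of the relay, stood at 106 RPKM in Δpp-1 [101 to 110] and 170 RPKM in the wild type [163 to 176]. These intervals did not overlap either, but the log2 fold of -0.68 did not reach the 2-fold size. Against a limit of 1.5-fold, mak-1 joined mek-1 among the lower genes, for 2 of 5 genes, and 23.3% of all genes compared passed that limit in the same direction; for 0 of 5 genes, and 6.11% of all genes, it was passed in the other. mak-1 was 0.40 below the median gene, and 17.4% of the genes compared had a lower log2 fold. The identifier NCU11376 was matched to mak-1 as an older tag in assembly NC12. The span given there overlaps that of NCU09843, which stood at 29.8 RPKM in Δpp-1 and 38.2 RPKM in the wild type. The kit keeps no record of strand, so reads from the shared stretch cannot be assigned to either gene, and the span of pkc-1 likewise touches that of NCU06546.

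**Figure D2:**
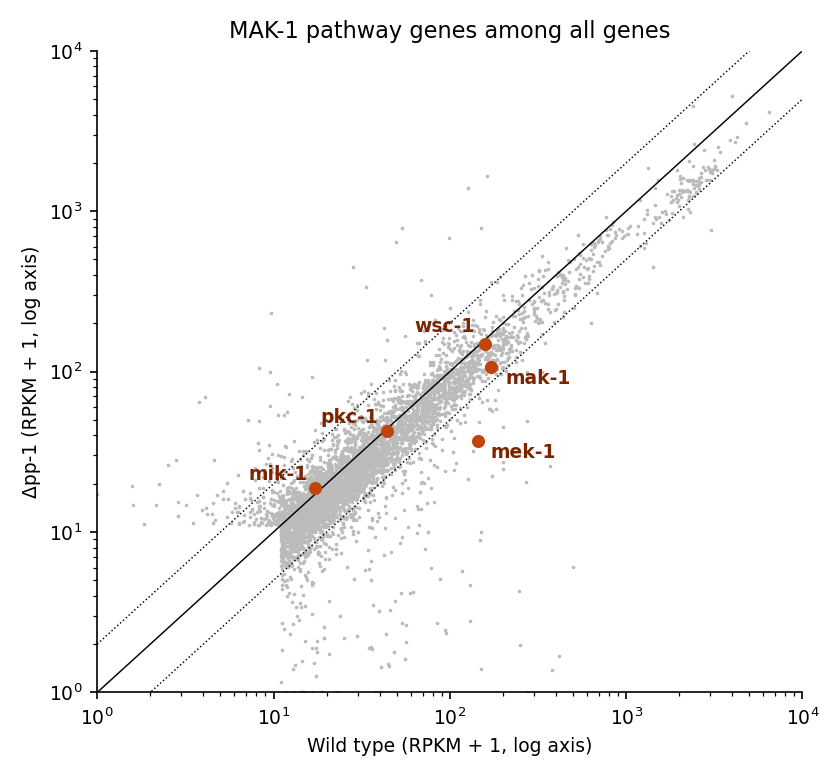
Level of each gene in Δpp-1 (vertical axis) against the wild type (horizontal axis), both as RPKM + 1 on log axes, for the 4831 genes compared (grey) and the 5 MAK-1 pathway genes (labelled); the solid line marks equal values and the dotted lines 2-fold differences. mek-1 lies outside the dotted lines, and the other 4 genes lie between them.

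These differences changed the order of the genes. In Δpp-1 the order from high to low was wsc-1, mak-1, pkc-1, mek-1 and mik-1, and the counting intervals of pkc-1 and mek-1 overlapped. In the wild type it was mak-1, wsc-1, mek-1, pkc-1 and mik-1, with overlapping intervals for mak-1 and wsc-1. The other neighbours in each order were apart by more than their counting intervals. mek-1 thus stood at 0.866 times the level of pkc-1 in Δpp-1 and at 3.30 times that level in the wild type.

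Ratios between genes within a library do not depend on the scaling between libraries. In Δpp-1 there were 2.02 RPKM of mek-1 for each RPKM of mik-1, against 8.85 in the wild type, a 4.37-fold difference. One step further down, mak-1 stood at 2.95 times the level of mek-1 in Δpp-1 and at 1.19 times its level in the wild type. The ratios among the genes higher up differed less. The ratio of pkc-1 to wsc-1 was 0.281 in Δpp-1 and 0.276 in wild-type germlings. For mik-1 over pkc-1 it was 0.428 in Δpp-1 and 0.373 in wild-type germlings. mak-1 over mik-1, which skips the mek-1 tier, was 5.97 in Δpp-1 and 10.5 in wild-type germlings.

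N. crassa has other MAP kinase relays of the same build, and the kinase tiers of 2 of them were set beside MIK-1, MEK-1 and MAK-1. They are the MAK-2 relay of germling fusion (nrc-1, mek-2, mak-2) and the OS-2 relay of osmotic stress (os-4, os-5, os-2). At the MAP kinase kinase tier, mek-2 stood at 40.0 RPKM in Δpp-1 and 51.9 RPKM in the wild type, and os-5 at 24.6 and 29.1 RPKM in the same order. Their log2 folds of -0.37 and -0.23 lie near the median gene, whereas that of mek-1 was -1.97. The counting interval of mek-1, from -2.13 to -1.86, lay below those of mek-2 (-0.54 to -0.21) and os-5 (-0.45 to -0.03).

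The MAP kinase tier showed a smaller gap of the same sign. mak-2 stood at 135 RPKM in Δpp-1 and 146 RPKM in the wild type, and os-2 at 124 RPKM in each. The level of mak-1 relative to mak-2 was 0.785 in Δpp-1 and 1.16 in wild-type germlings, so the order of these MAP kinases differed between the libraries. At the top tier, mik-1 and nrc-1 were close to each other in both libraries, with a ratio of 1.07 in Δpp-1 and 0.988 in wild-type germlings. os-4, at 31.5 RPKM in Δpp-1 and 19.3 RPKM in the wild type, differed in the other direction, with a log2 fold of 0.68. None of these 6 genes was 2-fold lower or higher in the values as deposited, although os-4 reached 1.06 when both libraries were brought to an equal RPKM sum. Within a library, the ratio of the MAP kinase to the top tier was lower in Δpp-1 in all 3 relays. It was 5.97 in Δpp-1 and 10.5 in wild-type germlings for mak-1 over mik-1. For os-2 over os-4 it was 3.94 and 6.44 in the same order, and for mak-2 over nrc-1 8.16 and 8.94.

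**Figure D3:**
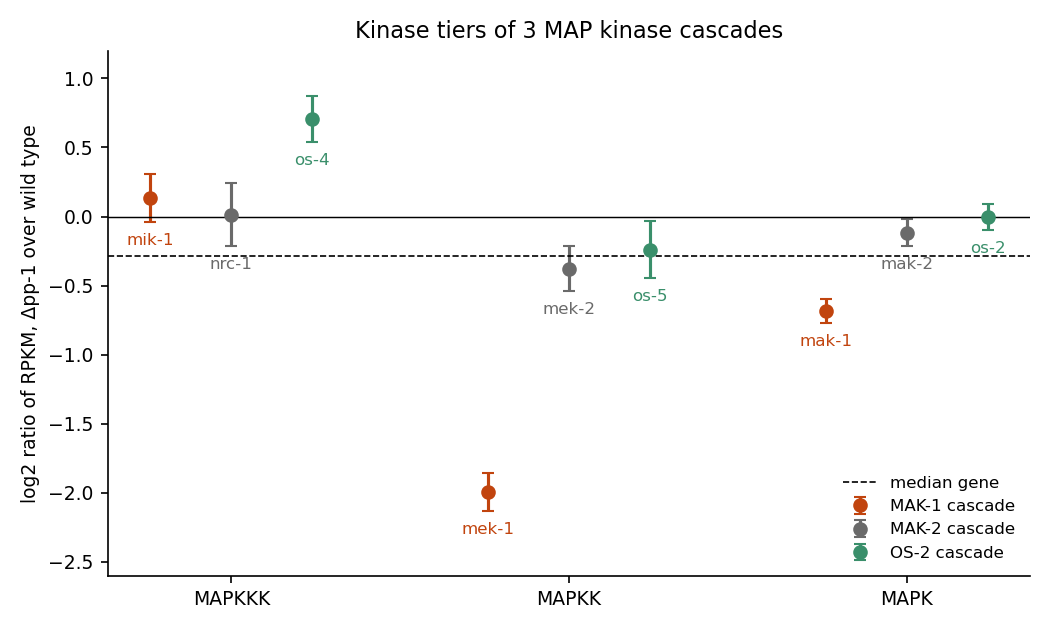
Log2 ratio of RPKM, Δpp-1 over wild type, with no value added, for the kinases of 3 relays ordered by tier; bars are 95% counting intervals from 1 library per strain, and the dashed line is the median gene. mek-1 (-1.99) and mak-1 (-0.68) lie below the kinases of the same tier in the MAK-2 and OS-2 relays.

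The makeup of each relay gives the same data without reference to the other library. The MAP kinase kinase took 22.5% of the summed RPKM of mik-1, mek-1 and mak-1 in Δpp-1 and 43.4% in wild-type germlings. In the MAK-2 relay mek-2 took 20.9% in Δpp-1 and 24.2% in wild-type germlings, and in the OS-2 relay os-5 took 13.7% and 16.8% in the same order. It was therefore the wild-type share of mek-1 that stood apart from the other relays, while the share in Δpp-1 was close to that of mek-2. The summed level of mik-1, mek-1 and mak-1 was 159 RPKM in Δpp-1 and 329 RPKM in the wild type. For the MAK-2 relay the sums were 191 RPKM in Δpp-1 and 214 RPKM in the wild type, and for the OS-2 relay 180 and 173 RPKM in the same order.

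**Figure D4:**
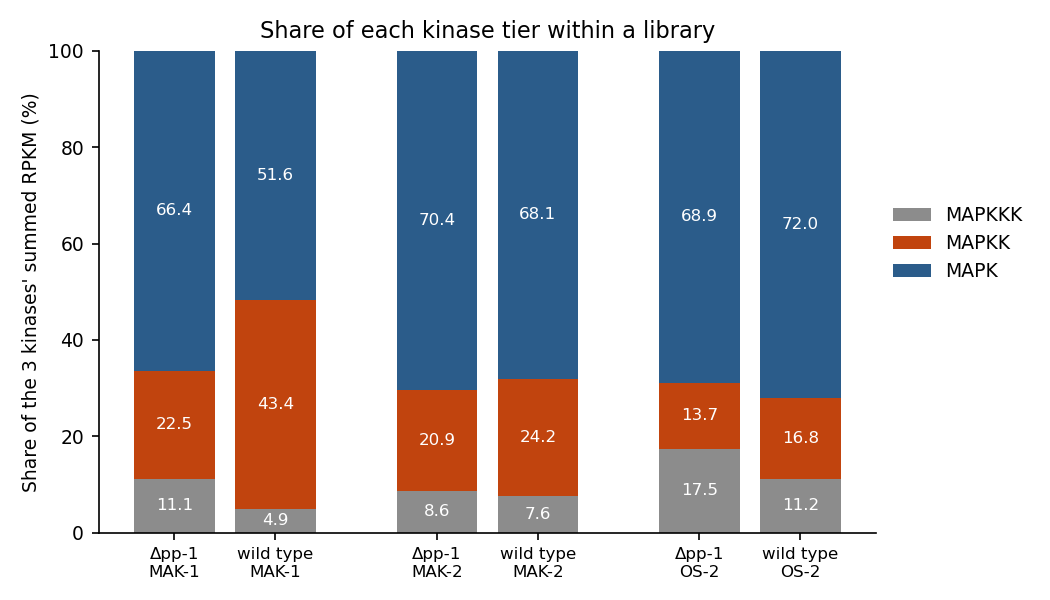
Share of each kinase tier (%) in the summed RPKM of the 3 kinases of a relay, for the MAK-1, MAK-2 and OS-2 relays, with Δpp-1 left of the wild type; each bar is 1 library. The MAP kinase kinase band of the MAK-1 relay is 22.5% in Δpp-1 and 43.4% in wild-type germlings, and that of the other relays lies between 13.7% and 24.2%.

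A further list held genes known to act with these kinases. Of its 9 identifiers, NCU04216 and NCU02558 were left out of the counts because the listed name was neither a symbol nor a synonym of theirs in the gene table, and their log2 folds were -0.66 and -0.82. Of the other 7, all of them past the 10 RPKM limit, 3 were at least 2-fold lower and 0 at least 2-fold higher, beside the 6.98% and 2.73% of all genes. The list was chosen with earlier results of these data known, so this count is a description alone. After each library was scaled by its median, 1 of the 7 was at least 2-fold lower, beside 4.39% of all genes. In the values as deposited, the median log2 fold of the 7 genes was -0.06, beside -0.28 for all genes compared.

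Those 3 genes were listed as a sensor, a scaffold and a transcription factor. ham-7 (NCU00881), for a cell surface protein that acts as a sensor upstream of MAK-1 in fusion, stood at 67.3 RPKM in Δpp-1 and 145 RPKM in the wild type. so (NCU02794), for a scaffold protein of the MAK-1 relay, stood at 16.5 RPKM in Δpp-1 and 52.4 RPKM in the wild type. adv-1 (NCU07392), for a transcription factor that acts with both relays in fusion, stood at 45.7 RPKM in Δpp-1 and 95.6 RPKM in the wild type. After each library was scaled by its median, so was still at least 2-fold lower, with a log2 fold of -1.36, whereas ham-7 and adv-1 were at -0.84 and -0.79.

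The other 4 genes of the list were near their wild-type levels in the values as deposited. rgf-1, for an exchange factor that activates small GTPases, stood at 25.9 RPKM in Δpp-1 and 25.5 RPKM in the wild type. lrg-1, for a GTPase-activating protein, was at 16.3 and 17.1 RPKM in the same order, and the small GTPase gene rho-2 at 24.9 and 25.97 RPKM. The glucan synthase gene fks (NCU06871), whose product makes β-1,3-glucan of the wall, stood at 113 RPKM in Δpp-1 and 103 RPKM in the wild type. After each library was scaled by its median, the log2 folds of these 4 genes lay between 0.18 for lrg-1 and 0.38 for fks. The sensor genes ham-7 and wsc-1 thus had unlike log2 folds in these libraries, -1.09 and -0.09. NCU04216, left out of the counts, had been listed as a sensor too, but the gene table names it ad-7. Its log2 fold of -0.66 is therefore not read as that of a sensor gene.

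The side of the small differences depended on the scaling between the libraries. Scaling each library by the median of its genes that averaged 10 RPKM or more raised Δpp-1 by 0.26 on the log2 scale, and an equal RPKM sum raised it by 0.40. Under these settings wsc-1 and pkc-1 turned from slightly negative to slightly positive log2 folds, between 0.17 and 0.33. mek-1 remained at least 2-fold lower, at -1.71 after median scaling, where 4.39% of all genes were at least 2-fold lower and 4.54% at least 2-fold higher, and at -1.57 with an equal sum. mak-1 kept a negative sign, at -0.42 and -0.28 under the same 2 settings, and mik-1 a positive sign, at 0.37 and 0.50. With an equal sum the difference of mik-1 was thus larger than that of mak-1.

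**Figure D5:**
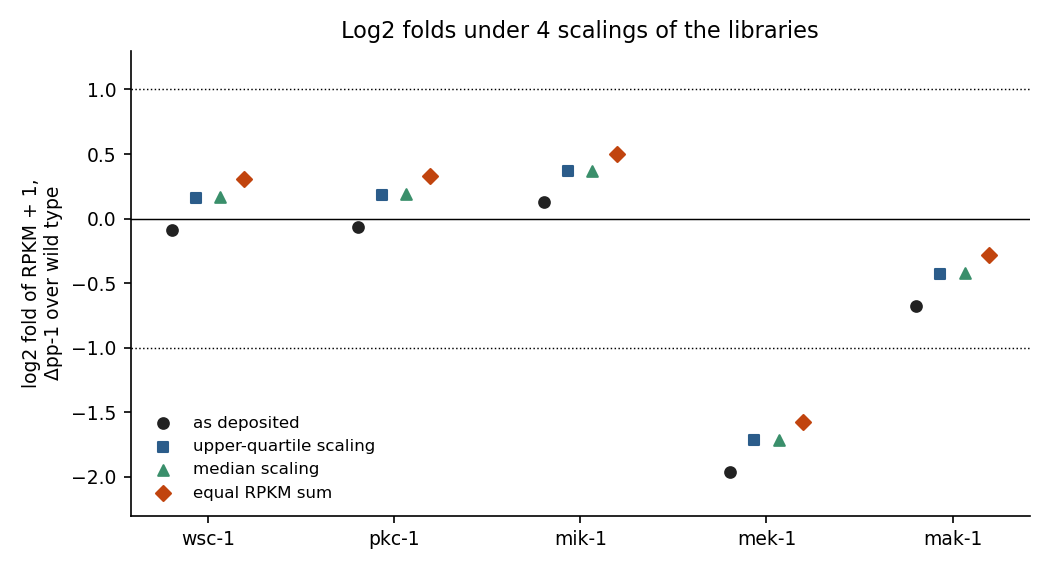
Log2 fold of RPKM + 1, Δpp-1 over wild type, of the 5 genes in the values as deposited and under 3 scalings of the libraries; dotted lines mark 2-fold. mek-1 lies below the lower dotted line under all 4, wsc-1 and pkc-1 cross 0, mak-1 stays below 0 and mik-1 stays above 0.

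Among genes with a symbol, those nearest to each of the 5 in both libraries were found by the distance between their log2 values over the 2 libraries. For mek-1 these were cre-1 (41.8 RPKM in Δpp-1 and 101 RPKM in the wild type, distance 0.55), adv-1 (distance 0.67) and ham-8 (55.6 RPKM in Δpp-1 and 172 RPKM in the wild type, distance 0.68). The nearest genes of the other 4 were closer. For mak-1 they were his-2, tca-7 and pep4, all at a distance of 0.09. The nearest to wsc-1 was pca-1, to pkc-1 ve-1 and to mik-1 fr, at distances between 0.027 and 0.039. With 2 libraries such closeness is a description of level and difference alone.

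The genes beside mek-1 in assembly NC12 differed in both directions. Of the 3 measured genes on either side, 4 reached 10 RPKM, and of these 0 were 2-fold lower and 2 were 2-fold higher, beside 6.98% and 2.73% of all genes compared. Those 2, named after their values were seen, were NCU06416 at 48.2 RPKM in Δpp-1 and 7.28 RPKM in the wild type, and NCU06417 at 27.5 and 13.1 RPKM in the same order. The nearest measured gene on one side, NCU06418, stood at 9.99 RPKM in Δpp-1 and 16.4 RPKM in the wild type, and the one on the other side, NCU06420, at 193 and 132 RPKM. Of the remaining pair, both under 10 RPKM, stk-42 stood at 1.39 RPKM in Δpp-1 and 3.42 RPKM in the wild type, and stk-41 was listed at 0 in each library. Around mak-1, 4 of the 6 neighbours reached 10 RPKM, with log2 folds from -0.35 to 0.27.

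Some genes of a conidial list, taken as possible markers of ungerminated conidia or conidiating hyphae in the culture, differed between the same 2 libraries. Whether their transcripts came from such cells was not tested. Of 8 such genes, 5 reached 10 RPKM in the higher library, and 4 of these (con-6, con-10, eas and al-1) stood at 2 or more times their wild-type level in Δpp-1, beside 2.73% of all genes compared. ccg-1, which also reached 10 RPKM, did not, at 13.2 RPKM in Δpp-1 and 14.3 RPKM in the wild type. con-8, under that limit, was at 2.91 and 3.57 RPKM in the same order. The summed level of the 8 genes was 337 RPKM in Δpp-1 and 93.3 RPKM in the wild type, of which al-1 alone gave 187 and 41.1 RPKM. The regulators acon-3 (0.668 RPKM in Δpp-1 and 1.83 RPKM in the wild type) and fl (2.65 and 2.83 RPKM in the same order) were low in both and not higher in Δpp-1. None of the 8 was listed at 0. The part of conidia or conidiating hyphae in the differences of mek-1 and mak-1 was not tested.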

How the data were processed

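RNA-seq of 1 library per strain was analysed. Per the labels' protocols, mRNA was purified on oligo(dT) beads, fragmented and turned into cDNA with random primers, and fragments were chosen by size on a gel and amplified by PCR. The submitters' processing notes name TopHat and Cufflinks but say neither the version nor the use of each. Which genome build and gene models were used is not given in the sources used here. The authors deposited 1 table of RPKM values per library, a unit named in the file headers. Each table had 8802 lines for 8564 genes, and the 238 repeated identifiers carried equal values and were counted once.

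Values were kept as deposited. Log2 folds used a pseudocount of 1 RPKM, which understates differences of low genes, and genes were compared where the higher library reached 10 RPKM. Symbols, spans and gene order came from the RefSeq gene table of assembly NC12, which 8294 identifiers matched. A step was sought that put the most low values of RPKM times span at 2, 3 or 4 times its size. It was 0.107 for the Δpp-1 library, with 10, 10 and 2 genes at these multiples and at most 3 at shifted positions. For the wild-type library it was 0.127, with 7, 10 and 9 genes, and at most 4 at shifted positions. The piles were thus small, 4 times the Δpp-1 step held no pile, and 0 genes lay at 1 times either step. These steps were read as the worth of 1 read and give the library totals; were they parts of a read, as weighted reads would give, the totals would be 50% of those stated. Of the 800 genes whose values were all between 0 and 1.5 RPKM, 100 lay at the most frequent log2 ratio found in a search, -0.2515. The steps themselves give -0.2542 for equal reads, near that peak but not at it, so the search is no separate check of the steps. Counting intervals of levels are exact Poisson intervals, and those of ratios Clopper-Pearson intervals. They rest on 50% of the reads computed from RPKM and span, for this reason and because spans hold introns, and cover counting error only. Fold rules and intervals were tested on simulated data. The genes, lists and rule for named genes (the 5 genes, pp-1, all listed genes that the gene table names likewise, and the 3 nearest genes to each) were chosen with earlier results of these data known. Python 3.11.15, scipy 1.17.1, pandas 2.3.3 and matplotlib 3.10.9 were used. A further gene that the selection holds, and a list set beside it, are not reported here.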

Additional observations from a re-analysis of the deposited data

How the results depend on the processing

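No paired analysis was possible because the data hold 1 library of each strain, and leaving out a replicate could not be tried either. The 8 alternatives were pseudocounts of 0.1 and 5, 3 scalings, no filter, a filter of 30 RPKM and a 1.5-fold limit. The last 3 cannot change the log2 fold of a gene. Under both pseudocounts and the scalings, mek-1 was at least 2-fold lower in Δpp-1, with log2 folds from -1.99 to -1.57, and mak-1 and mik-1 kept their sign. The median log2 fold of the 5 genes, -0.09 as deposited, turned to 0.17 with median scaling, 0.16 with upper-quartile scaling and 0.31 with an equal RPKM sum, each of which raises Δpp-1 by construction. It was -0.39 with the filter of 30 RPKM, which leaves out mik-1. The count of the 5 genes that were lower was 2 at 1.5-fold, against 1 at 2-fold. Against 132 higher and 337 lower among all genes, there were 215 and 208 with median scaling, 213 and 211 with upper-quartile scaling, 294 and 183 with an equal sum, 252 and 521 with no filter, 67 and 179 with a filter of 30 RPKM, and 295 and 1125 at 1.5-fold. The split between higher and lower genes thus follows the scaling. With an unknown build and annotation, read counts per gene are estimates.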
